A study of Homo sapiens with 8 samples.

Results

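LINC RNAs are long noncoding RNAs transcribed from loci between protein-coding genes, and a LINC symbol with a number is a placeholder for a locus whose function had not been named. The members were the symbols made of LINC and digits whose higher group reached 1 FPKM (a fragment count scaled for transcript length and sequencing depth) in at least 1 of 2 deposited tables. They number 183 of the 1942 LINC symbols among 60595 listed genes. Of the other LINC symbols, 1231 were at 0 in every group and 528 lay above 0 but below the floor. The levels that chose the members come from the same groups that the comparisons use, so the counts below describe the members and test nothing about them. Just inside the floor were LINC02245, with a highest level of 1.02 FPKM, and LINC02021, with 1.04 FPKM. Just outside were LINC02188, at 0.995 FPKM, and LINC02208, at 0.958 FPKM.

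RNA was measured in SUM159, a widely used triple-negative human breast cancer line of mesenchymal character, grown in serum with insulin and hydrocortisone. Cells were infected with lentivirus to express either a control shRNA, shCon, or shFoxO1, which targets the transcription factor FOXO1. They spent 3 days in DMSO, the solvent, or in olaparib at 10 uM; olaparib blocks PARP1 and PARP2, enzymes of DNA repair. The labels list 8 libraries, 2 for each of 4 groups. The groups shCon DMSO, shCon olaparib and shFoxO1 olaparib were analysed, and shFoxO1 in DMSO was not analysed here. The first table sets olaparib against DMSO in shCon cells and asks what the drug changed. The second sets shFoxO1 against shCon under olaparib and asks what the knockdown changed in drug-treated cells. How many shRNA sequences were used, and whether the infected cells were pools or clones, is not given in the sources used here. A group has a single FPKM value for each gene in a table, which leaves the spread between libraries unseen and the depth unknown. A gene is called where its q-value, as the authors' deposited table gives it, does not exceed 0.05. Separate cultures for the libraries of a group are not stated in the labels, and the q-values may therefore reflect technical spread alone. Less RNA per cell and fewer cells of a kind cannot be told apart in bulk samples.

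FOXO1 was at 54.6 FPKM in shCon DMSO, 87.7 FPKM in shCon olaparib and 17.5 FPKM in shFoxO1 olaparib. Against 89.2 FPKM for shCon olaparib in the second table this was 5.11-fold lower (q = 0.000244 per the authors' deposited table), the direction that the shFoxO1 label names. Of the markers of the line, VIM (1656 to 2456 FPKM), CD44 (119 to 129 FPKM) and EGFR (12.3 to 37.4 FPKM) were present. The oestrogen receptor gene ESR1 reached at most 0.088 FPKM, and PGR and CDH1 were listed at 0. The 5 leukocyte markers (PTPRC, CD3D, MS4A1, LYZ and CD14) summed to 2.2, 0.492 and 0.339 FPKM in the 3 groups, with CD3D, MS4A1 and LYZ at 0 throughout. The 3 endothelial markers (PECAM1, CDH5 and VWF) summed to 0.111, 0.0960 and 1.80 FPKM, the last almost wholly PECAM1, which was higher with shFoxO1 (q = 0.00396 per the authors' deposited table). The part of such cells in the values below was not tested.

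As background, most LINC RNAs are made by RNA polymerase II and are spliced and polyadenylated, but they are usually less abundant than mRNAs and more restricted to certain tissues. Some act in the nucleus on the gene next to them, some bind proteins or microRNAs elsewhere in the cell, and a few encode small proteins. For most of them no function is established. Since many share a promoter region or a chromosome neighbourhood with a protein-coding gene, that neighbour is described below for some of the members.

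All 183 members matched a lncRNA entry in RefSeq of GRCh38.p14, the build the submitters name as hg38. Under another current symbol were 14 of them, such as LINC01578 (CHASERR) and LINC01137 (LITATS1). The median span from the first to the last base was 14892 bases. The spans of 160 members overlapped no protein-coding span and those of 23 did. Chromosome 1 held 21 members, chromosome 5 held 15 and chromosome 3 held 14. A listed region shared with another gene was given by the authors for 113 of the members, as it was for 72% of all tested genes, and how reads were divided there cannot be checked.

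Promoter windows from RefSeq, running from 250 bases before the annotated start to 50 bases after it, were at hand for 132 members. They were searched on both strands for the letters GTAAACA, the core that FOXO and other forkhead factors bind, and TTCNNNGAA, the core of STAT sites. GTAAACA was present in 9 of the 132 member windows (6.82%) and in 3.44% of the windows of all 27195 genes. TTCNNNGAA was present in 12 member windows (9.09%) and in 7.89% of all. GC content was alike, with medians of 57.8% for member windows and 58.3% for all. A match is a description of letters and shows no binding.

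Printed below, 5′ to 3′ in the direction of the LINC RNA, are the windows of the 4 members that held a FOXO or STAT match and were called in both comparisons, together with LINC01137, whose window spans the gap to its coding neighbour. They were chosen after their values were seen. In LINC01137 (chr1:37474394-37474693, minus strand) the capitals are the 137 bases between its start and the start of ZC3H12A, read the other way, and neither set of letters was found. In the others the capitals are matches, none overlapping another: GTAAACA, on the opposite strand, 55 bases before the start of LINC00511 (chr17:72640423-72640722, minus strand); GTAAACA at 197 and TTCNNNGAA at 69 bases before that of LINC02289 (chr14:77076142-77076441, minus strand). TTCNNNGAA lay 181 bases before the start of LINC00601 (chr10:126421830-126422129, minus strand) and 249 bases before that of LINC01619 (chr12:92142782-92143081, minus strand).
LINC01137: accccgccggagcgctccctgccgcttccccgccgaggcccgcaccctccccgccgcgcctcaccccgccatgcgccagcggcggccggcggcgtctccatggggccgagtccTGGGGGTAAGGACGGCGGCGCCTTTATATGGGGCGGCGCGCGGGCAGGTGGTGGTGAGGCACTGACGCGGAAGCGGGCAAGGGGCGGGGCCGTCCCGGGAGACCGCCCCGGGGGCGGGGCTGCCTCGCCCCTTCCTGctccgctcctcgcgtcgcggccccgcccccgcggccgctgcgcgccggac
LINC00511: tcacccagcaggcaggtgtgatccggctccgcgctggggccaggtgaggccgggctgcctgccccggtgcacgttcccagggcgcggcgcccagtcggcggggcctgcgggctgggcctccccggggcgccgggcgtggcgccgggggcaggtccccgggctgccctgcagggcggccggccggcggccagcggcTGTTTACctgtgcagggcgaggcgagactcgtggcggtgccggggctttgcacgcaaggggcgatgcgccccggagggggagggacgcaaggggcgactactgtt
LINC02289: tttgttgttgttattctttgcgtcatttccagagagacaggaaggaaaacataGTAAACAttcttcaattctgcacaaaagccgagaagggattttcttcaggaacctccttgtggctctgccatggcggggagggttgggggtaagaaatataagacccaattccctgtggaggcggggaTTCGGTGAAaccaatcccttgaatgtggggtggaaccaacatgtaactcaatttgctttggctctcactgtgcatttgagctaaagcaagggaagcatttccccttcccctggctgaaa
LINC00601: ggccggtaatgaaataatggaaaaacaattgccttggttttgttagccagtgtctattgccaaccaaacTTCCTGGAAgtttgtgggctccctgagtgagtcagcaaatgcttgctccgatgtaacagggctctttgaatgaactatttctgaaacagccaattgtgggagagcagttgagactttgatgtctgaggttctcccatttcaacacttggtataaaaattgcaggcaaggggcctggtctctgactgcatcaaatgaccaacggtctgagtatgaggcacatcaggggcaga
LINC01619: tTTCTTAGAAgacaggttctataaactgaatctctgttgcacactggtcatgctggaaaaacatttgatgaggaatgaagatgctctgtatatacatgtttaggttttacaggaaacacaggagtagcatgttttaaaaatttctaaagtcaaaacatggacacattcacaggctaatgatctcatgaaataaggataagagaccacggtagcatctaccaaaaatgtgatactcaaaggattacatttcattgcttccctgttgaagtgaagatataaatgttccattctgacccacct

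These windows differ in composition, from 80.7% GC in LINC01137 and 78% in LINC00511 to 36% in LINC01619. LINC00511 was at 26.1, 10.1 and 31.7 FPKM in shCon DMSO, shCon olaparib and shFoxO1 olaparib, and LINC02289 at 6.38, 3.60 and 9.89 FPKM, so both were lowest in shCon olaparib. LINC00601 (1.58, 3.68 and 1.22 FPKM) and LINC01619 (0.284, 2.14 and 0.0915 FPKM) were highest there. All 9 members with GTAAACA were tested. As background, 15.6% of the genes tested with olaparib were called higher and 23.1% lower, and with shFoxO1 22.6% and 19.8%. With olaparib 4 of these 9 members were called lower (LINC00511, LINC00843, LINC02289 and LINC02428) and the other 5 were not called. For LINC00843, LINC02289 and LINC02428 q was 0.0400, 0.0146 and 0.0258 per the authors' deposited table. All of these except LINC00511 lost that call when p-values were adjusted over every listed gene instead of the tested genes. With shFoxO1 LINC00511 and LINC02289 were called higher and the other 7 were not called. Of the 11 tested members with TTCNNNGAA, 4 were called higher and 3 lower with olaparib. Of 10 tested with shFoxO1, 2 were called higher and 2 lower. With so few windows nothing is read from these counts.

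The members were low-level RNAs. Their highest level lay between 1 and 5 FPKM for 124 of them and reached 10 FPKM for 27. The median over the 183 was 1.55 FPKM in shCon DMSO, 2.21 FPKM in shCon olaparib and 1.55 FPKM in shFoxO1 olaparib. Summed, they made up 0.0974%, 0.121% and 0.0974% of all FPKM in those groups. Highest in shCon olaparib were 108 members, in shCon DMSO 38 and in shFoxO1 olaparib 37. Such shares were not computed for all genes. All tested genes with a highest level of 1 to 5 FPKM had a median log2 ratio of 0.42 with olaparib and -0.43 with shFoxO1. At least 1 FPKM in every group was seen for 92 members, and in a single group for 53. The floor was passed by way of the highest group, so members that reach it in a single group had to differ between groups.

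The most abundant member was LINC00958 (ENSG00000251381, chromosome 11, 12979534 to 12989548), an RNA studied in bladder and other carcinomas, at 50.4, 64.7 and 41.9 FPKM in shCon DMSO, shCon olaparib and shFoxO1 olaparib. It was lower with shFoxO1 (log2 ratio -0.65, q = 0.000863 per the authors' deposited table) and was not called with olaparib (0.36). Next was LINC01578 or CHASERR (ENSG00000272888, chromosome 15, 92882843 to 92898747), which in mouse restrains the chromatin remodeller gene Chd2 beside it. It was at 55.7, 40.9 and 34.0 FPKM and was called in neither comparison. Nor was the human CHD2, at 18.6, 25.9 and 21.7 FPKM. LINC00963, studied in prostate carcinoma, had close values in the 3 groups, at 27.6, 25.5 and 22.8 FPKM, and was not called either. LINC00339, near CDC42 on chromosome 1, was at 22.3, 25.7 and 14.2 FPKM, also without a call.

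Several abundant members were lowest in drug-treated shCon cells. LINC02381 (ENSG00000250742, chromosome 12, 54126071 to 54132843) was at 23.9, 11.1 and 36.6 FPKM in the order above. It was lower with olaparib (log2 ratio -1.11, q = 0.000540 per the authors' deposited table) and higher with shFoxO1 (1.70, q = 0.000244). LINC00165 followed the same order of groups at 20.3, 13.1 and 20.5 FPKM, with smaller log2 ratios of -0.63 and 0.62, both called. LINC00839 fell from 27.9 to 17.2 FPKM with olaparib and was at 20.7 FPKM with shFoxO1, where the difference was not called. LINC01184, the divergent transcript of the ion cotransporter gene SLC12A2, was at 19.1 and 18.3 FPKM without and with the drug and lower, at 12.5 FPKM, with shFoxO1 (log2 ratio -0.58, q = 0.0128 per the authors' deposited table). Of the 27 members that reached 10 FPKM, 6 were called higher and 7 lower with olaparib, and 10 higher and 7 lower with shFoxO1. A background at 10 FPKM was not computed. At the lower bound of 5 FPKM or more, the shares among all tested genes were 14.8% higher and 29.3% lower with olaparib, and 27.7% and 20.5% with shFoxO1.

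**Figure D1:**
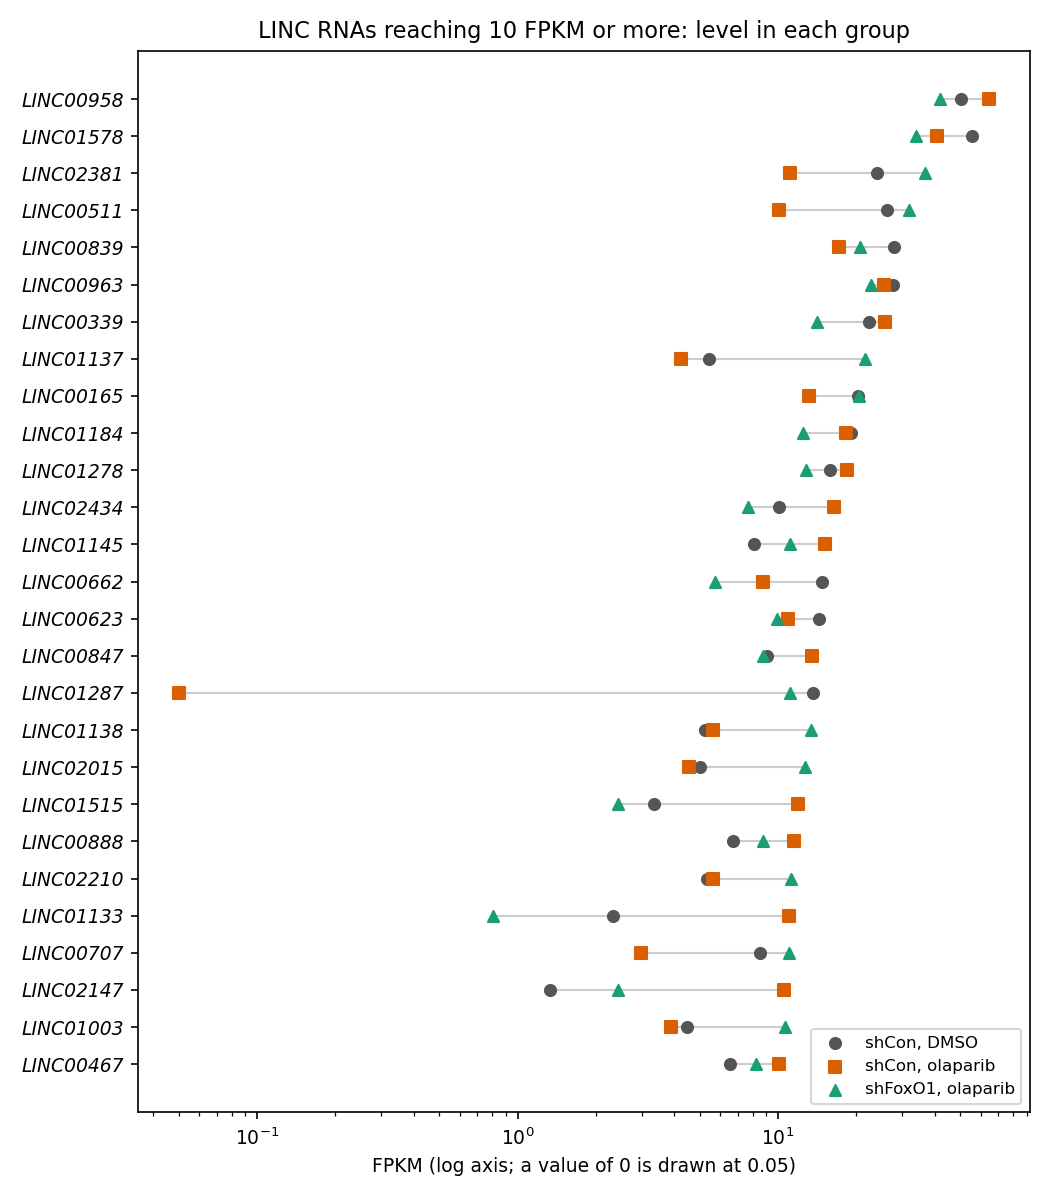
Level in FPKM (log axis) of the 27 LINC RNAs that reached 10 FPKM, with circles for shCon DMSO, squares for shCon olaparib and triangles for shFoxO1 olaparib; each point is 1 deposited value. The 3 points of LINC00963 nearly coincide, LINC01137 is set apart by its triangle at 21.6 FPKM, and LINC01287 is listed at 0 in shCon olaparib, drawn at the left.

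With olaparib in shCon cells, LINC01133, LINC00674, LINC02147 and LINC01088 rose, and LINC01234, LINC01980, LINC00707 and LINC00511 fell. Of the 174 members the authors tested, 42 were called higher, 23 lower and 109 not. The background over the 14841 genes tested was 15.6% called higher and 23.1% called lower, 38.7% in all. The median log2 ratio was 0.51 over the 169 tested members with a value above 0 in both groups, and -0.07 over all tested genes with a ratio. At least 2-fold were 36 of the higher and 15 of the lower members, against a background of 8.53% and 9.74%.

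LINC01088, studied in ovarian tumours, rose from 0.251 to 3.35 FPKM (log2 ratio 3.74, q = 0.000540 per the authors' deposited table). LINC00674 on chromosome 17 rose from 0.744 to 7.01 FPKM (3.24, q = 0.00827) and LINC02147, whose span on chromosome 5 is 535702 bases, from 1.34 to 10.5 FPKM (2.98, q = 0.00947). LINC01133, an RNA studied in breast and other carcinomas, rose from 2.32 to 11.0 FPKM (2.24, q = 0.000284 per the authors' deposited table). These 4 members were below 2.5 FPKM in DMSO and above 3 FPKM in olaparib. LINC01511 had the largest ratio among called members with a value in both groups, from 0.0924 to 1.58 FPKM (log2 ratio 4.09, q = 0.0217 per the authors' deposited table). LINC02475, LINC01687, LINC00598, LINC01619, LINC01186 and LINC02084 were also higher, with log2 ratios from 3.15 to 2.55. LINC01550, LINC01666 and LINC01786 were listed at 0 in DMSO and called higher, at 1.12, 1.31 and 1.27 FPKM in olaparib.

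Among the lower members, LINC01287 on chromosome 7 was at 13.7 FPKM in DMSO and listed at 0 in olaparib (q = 0.000284 per the authors' deposited table). LINC01980 fell from 5.10 to 0.295 FPKM (log2 ratio -4.11) and LINC01234, studied in gastric and breast carcinoma, from 4.23 to 0.382 FPKM (-3.47), both at the smallest q of the table. LINC01444 fell from 5.05 to 0.747 FPKM (-2.76, q = 0.00226 per the authors' deposited table). All 4 lay above 4 FPKM in DMSO and below 1 FPKM with the drug. LINC00707 (8.56 to 2.98 FPKM) and LINC00460 (6.25 to 2.01 FPKM), both studied in several carcinomas, fell by less, with log2 ratios of -1.52 and -1.64. LINC01967, LINC01615, LINC00857, LINC00843 and LINC01588 were also lower, from levels of 1.30 to 2.70 FPKM in DMSO.

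With shFoxO1 under olaparib, LINC01133, LINC00674, LINC01088 and LINC02147 were among the members that fell, and LINC01137, LINC01234, LINC00707 and LINC00511 among those that rose. Of 174 tested members 22 were called higher, 48 lower and 104 not. The background over the 14660 genes tested was 22.6% called higher and 19.8% called lower, 42.4% in all. The median log2 ratio was -0.64 over 165 tested members with a value in both groups, and 0.01 over all tested genes with a ratio. At least 2-fold were 20 of the higher and 42 of the lower members, against 11.8% of all tested genes in either direction. The shCon olaparib libraries stand on the other side of both comparisons, so a value that is high in that group alone gives opposite signs in them; each comparison's values are given side by side, and no overlap between them is read as a result.

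LINC01133 was at 0.802 FPKM with shFoxO1 against 11.2 FPKM with shCon in the second table (log2 ratio -3.80, q = 0.000244 per the authors' deposited table). LINC00674 was at 0.412 against 7.15 FPKM (-4.12, q = 0.0454), LINC01088 at 0.240 against 3.41 FPKM (-3.83, q = 0.000462) and LINC02147 at 2.42 against 10.7 FPKM (-2.15, q = 0.00380 per the authors' deposited table). In the knockdown group LINC01133 and LINC00674 lay below their level in shCon DMSO, LINC01088 near it and LINC02147 above it. LINC02202, which lies head to head with the transcription factor gene EBF1, was at 1.09 against 7.13 FPKM (-2.71, q = 0.00834 per the authors' deposited table). LINC01619, LINC02268, LINC00840, LINC02475, LINC02084 and LINC02021 were lower too, with log2 ratios from -4.58 to -2.66. Listed at 0 with shFoxO1 and called lower were LINC02541, LINC02269, LINC01666, LINC01786 and LINC01697, from 1.25 to 1.80 FPKM with shCon.

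LINC01137 (ENSG00000233621, chromosome 1, 37454879 to 37474443), now named LITATS1 as an RNA that dampens TGF-beta signalling, was at 21.6 FPKM with shFoxO1 against 4.33 FPKM with shCon. The difference was 4.99-fold (log2 ratio 2.32, q = 0.000244 per the authors' deposited table), and with 5.44 FPKM in shCon DMSO only the knockdown group stands apart. LINC01234 was at 4.14 against 0.389 FPKM (3.41), LINC00707 at 11.0 against 3.04 FPKM (1.86) and LINC00511 at 31.7 against 10.3 FPKM (1.62), all at the smallest q of the table. These 3 were thus near or above their level in shCon DMSO. LINC01287 was listed at 0 with shCon and at 11.1 FPKM with shFoxO1. LINC00525, LINC01444, LINC01615 and the adjoining LINC00943 and LINC00944, which share a listed region, rose with log2 ratios from 1.97 to 2.75.

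A few members had other patterns. LINC00662 was lower in both, at 14.7, 8.76 and 5.74 FPKM in shCon DMSO, shCon olaparib and shFoxO1 olaparib (log2 ratios -0.75 and -0.64, q = 0.00567 and 0.0261 per the authors' deposited tables). LINC00460 was called lower with olaparib and then stood at 1.22 against 2.05 FPKM with shFoxO1, a difference that was not called. LINC00702 rose from 0.505 to 2.64 FPKM with olaparib and was at 2.39 FPKM with shFoxO1, without a call. LINC02015 (5.00, 4.54 and 12.6 FPKM) and LINC01003 (4.46, 3.90 and 10.6 FPKM) resembled LINC01137 in that they were called only in the second comparison, as higher. LINC00662, LINC00702 and LINC02015 are named as examples chosen after their values were seen, the last 2 outside the naming rule.

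**Figure D2:**
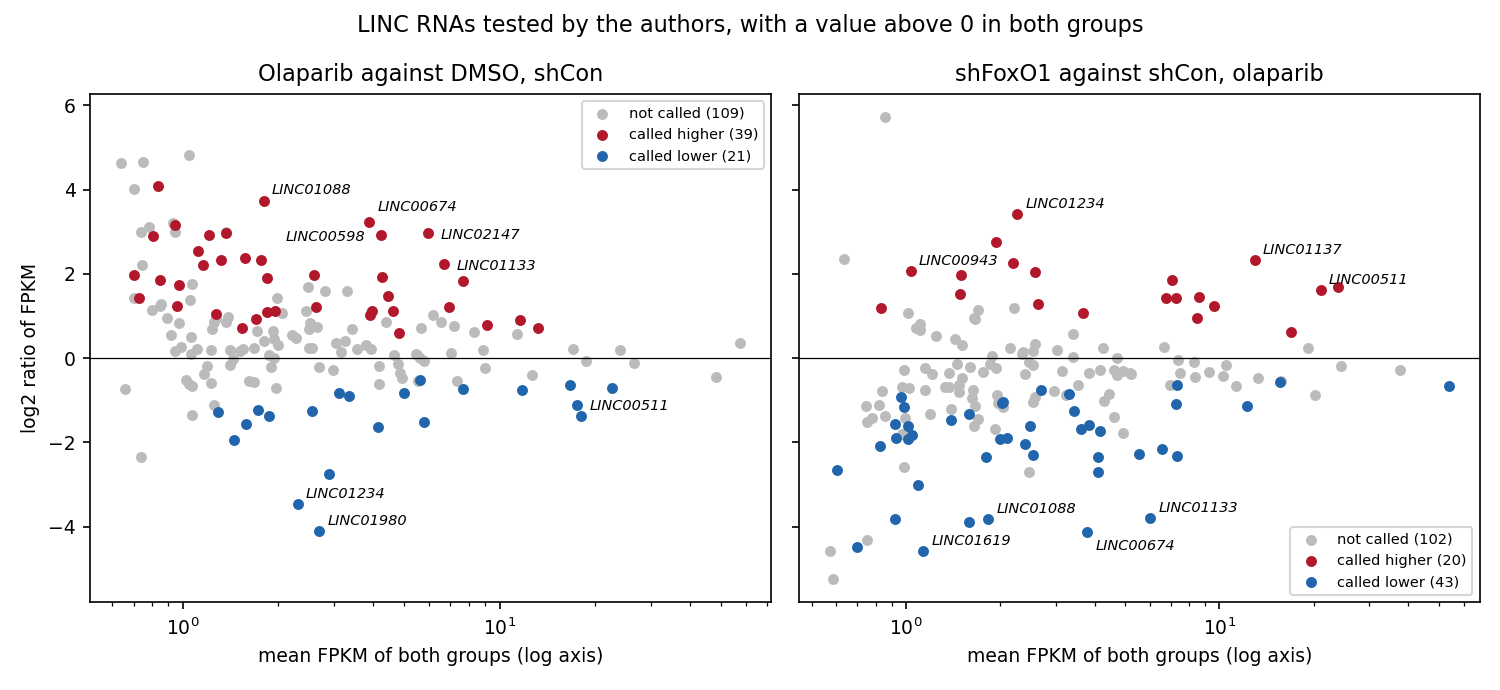
Log2 ratio of FPKM against the mean FPKM of both groups (log axis) for the tested LINC RNAs with a value above 0 in both groups, olaparib against DMSO at the left and shFoxO1 against shCon under olaparib at the right; red points are called higher, blue lower and grey not called. Most points of low level lie above 0 at the left and below 0 at the right, and LINC01137 and LINC00511 stand high at the right.

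The tilt of these counts differed between levels and between ways of choosing genes, and its cause was not tested. Among all 3537 tested genes whose highest level lay between 1 and 5 FPKM, 18.5% were called higher and 6.79% lower with olaparib, with a median log2 ratio of 0.42. The 115 LINC RNAs in that range had 23.5% higher and 7.83% lower, with a median of 0.69. At 5 FPKM or more, 25.4% of the 59 tested members were higher and 23.7% lower, with a median of 0.11, against 14.8% and 29.3% of all tested genes of that level. With shFoxO1 the genes between 1 and 5 FPKM had 8.18% higher and 18.4% lower (median -0.43), and the LINC RNAs among them 7.76% and 28.4% (median -0.78). At 5 FPKM or more, 22.4% of the 58 tested members were higher and 25.9% lower with shFoxO1 (median -0.39), against 27.7% and 20.5% of all tested genes of that level. Chosen by the group outside the comparison, which is shFoxO1 olaparib for the first table, 115 tested LINC RNAs gave 21 higher and 21 lower with olaparib, with a median log2 ratio of 0.21. Chosen by shCon DMSO for the second table, 117 gave 18 higher and 29 lower with shFoxO1, with a median of -0.41. All genes chosen in these ways gave 14.3% higher and 25.9% lower with olaparib, and 24.4% and 19.5% with shFoxO1. Their median log2 ratios were -0.14 with olaparib and 0.05 with shFoxO1.

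The class most like the members is that of lncRNAs named as antisense to a coding gene, with 284 at 1 FPKM or more. With olaparib 34 of their 275 tested genes were called higher (12.4%) and 11 lower (4%), with a median log2 ratio of 0.45. With shFoxO1, 11 were called higher (4%) and 43 lower (15.6%), with a median of -0.63. Their medians were close to those of the LINC RNAs and their shares called were lower. Protein-coding genes tilted the other way, with 16.6% higher and 27.7% lower for olaparib and 26.6% and 21.0% for shFoxO1. Coding genes between 1 and 5 FPKM had 26.2% higher and 10.8% lower with olaparib, the same side as the LINC RNAs. No test of these differences was made, since the floor chose the genes by the compared values.

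**Figure D3:**
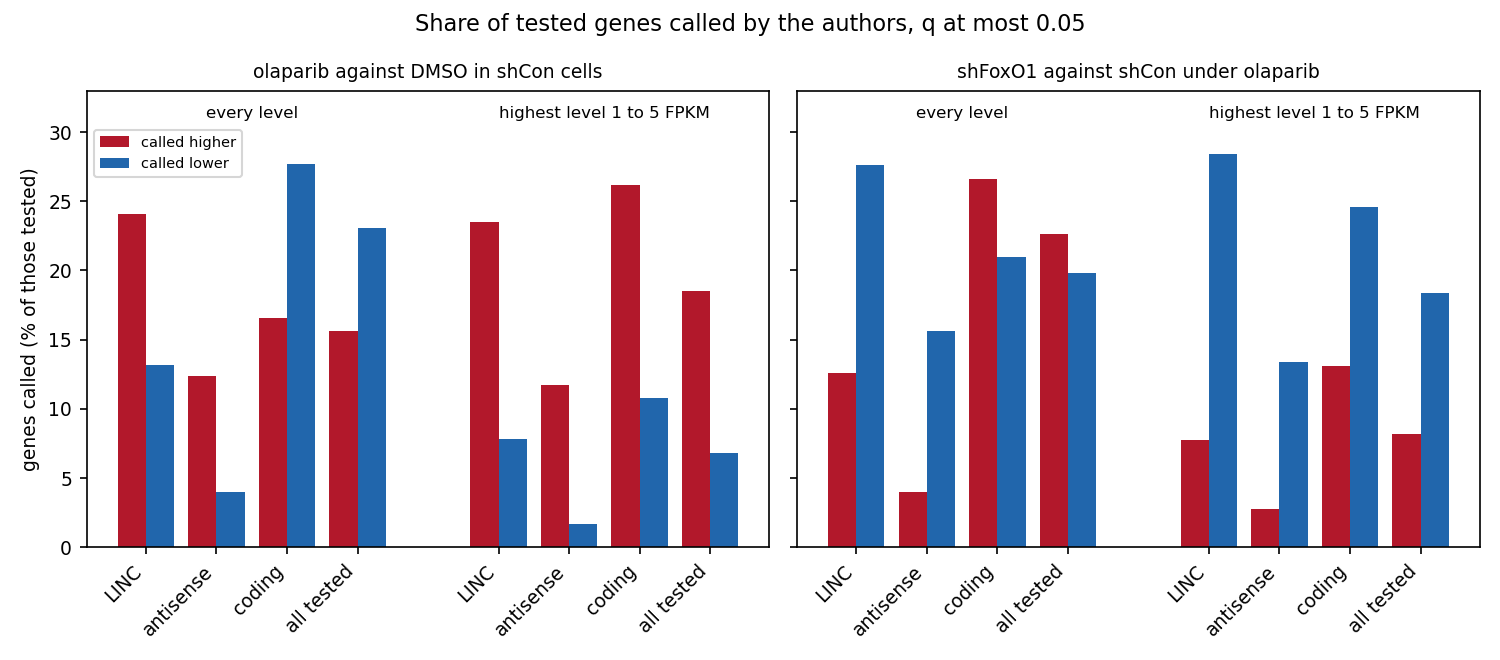
Share of tested genes called higher (red) and lower (blue) among LINC RNAs, antisense-named lncRNAs, protein-coding genes and all tested genes, at every level and at a highest level of 1 to 5 FPKM, for olaparib at the left and shFoxO1 at the right. At 1 to 5 FPKM all 4 classes have more genes called higher than lower with olaparib and more called lower than higher with shFoxO1.

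Of 30 LINC RNAs listed as studied in breast and other carcinomas, 12 were members, and all 12 were tested in both comparisons. With olaparib LINC01133 was the 1 called higher, and 6 were called lower (LINC00460, LINC00511, LINC00662, LINC00707, LINC00857 and LINC01234), with a median log2 ratio of -0.68, beside 15.6% higher, 23.1% lower and a median of -0.07 over all tested genes. With shFoxO1 LINC00511, LINC00707 and LINC01234 were called higher and LINC00662 and LINC01133 lower, with a median of -0.25, beside 22.6%, 19.8% and 0.01 over all tested genes. LINC00941 (2.01, 1.35 and 1.06 FPKM) and LINC00472 (2.49, 5.35 and 4.39 FPKM), the latter described as a tumour suppressor RNA in breast cancer, were called in neither. Of 9 LINC loci listed as hosts of a microRNA or snoRNA, 3 were members (LINC00472, LINC01003 and LINC01138). With olaparib their log2 ratios were 1.11, -0.19 and 0.10, without a call. LINC01003 and LINC01138 (5.25, 5.62 and 13.4 FPKM) were called higher with shFoxO1.

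LINC loci reported to encode small proteins were represented by 2 members. LINC00467, with a peptide that binds the ATP synthase in colon cancer cells, was at 6.54, 10.1 and 8.21 FPKM in shCon DMSO, shCon olaparib and shFoxO1 olaparib. LINC01116 was at 5.02, 3.30 and 3.44 FPKM, and neither was called in either comparison. LINC01089, the only member on the list of innate immunity and an RNA that epidermal growth factor represses in mammary cells, was at 4.06, 8.28 and 5.43 FPKM without a call.

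Each member was set beside the nearest protein-coding gene that could be matched to the tables. With olaparib both were tested for 116 pairs, and 43 members of these pairs were called. The neighbour was called in the same direction for 13 of them, in the other direction for 6, and not at all for 24, while 38.7% of all tested genes were called. With shFoxO1 there were 112 such pairs and 37 called members. For 12 of these the neighbour was called the same way, for 6 the other way and for 19 not at all. Of all tested genes 42.4% were called there, 22.6% higher and 19.8% lower. Across pairs Pearson's r of the log2 ratios was 0.37 over 113 pairs with olaparib and 0.22 over 107 with shFoxO1, a description of pairs that share libraries, scaling and in part the neighbour. The span of this neighbour was overlapped by 17 members. The 23 given earlier also include overlaps with coding genes that were not matched, so those members are placed below by distance to the neighbour. Where the spans overlapped, all 4 called members had a neighbour called the same way with olaparib, and 2 of 4 with shFoxO1. The 4 with olaparib were LINC00476, LINC00843, LINC01619 and LINC01786. All of them except LINC01786 lost that call with adjustment over every listed gene. Overlapping genes may share reads, and the part of this in these counts was not tested. Within 10 kilobases without overlap, 9 members were called with olaparib, with 1 neighbour called the same way, 2 the other way and 6 not, and 8 with shFoxO1, with 3, 1 and 4. Over 100 kilobases away, the neighbours of 14 called members gave 3, 2 and 9 with olaparib, and those of 9 gave 4, 2 and 3 with shFoxO1. Head to head within 5 kilobases of a coding start lay 13 members. With olaparib 1 of 3 called members had a neighbour called the same way and 2 had one that was not called, and with shFoxO1 the counts were 2 and 2 of 4.

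The shared start printed above is that of LINC01137 with ZC3H12A, an RNase that degrades inflammatory cytokine mRNAs. Their starts, 137 bases apart, bound the capitals. Closer head-to-head starts were those of LINC00909 and ZNF407 (35 bases), LINC02056 and TNPO1 (113 bases) and LINC01547 and FAM207A (116 bases). No gene of the first 2 of these pairs was called. LINC01547 was called only with shFoxO1, as lower, and FAM207A only with olaparib, as lower. ZC3H12A was at 25.0, 6.06 and 134 FPKM in shCon DMSO, shCon olaparib and shFoxO1 olaparib. It was lower with olaparib (log2 ratio -2.05, q = 0.000284 per the authors' deposited table) and higher with shFoxO1 (4.45, q = 0.000244). LINC01137 was highest in the same group, but with olaparib its log2 ratio of -0.35 was not called. LINC01715, whose start lies 189 bases from that of the transcription factor subunit gene TAF12, was at 0.868, 1.68 and 0.686 FPKM and was not called. TAF12 was called in both comparisons, at 16.9, 36.7 and 12.6 FPKM. EBF1, a B-cell and stromal factor, was at 5.86, 13.1 and 4.05 FPKM beside LINC02202 at 4.30, 7.01 and 1.09 FPKM, and the pair moved alike with shFoxO1 (EBF1 log2 ratio -1.72).

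LINC01619 overlaps the antiproliferative gene BTG1 on the same strand, so their reads cannot be told apart where they overlap. BTG1 was at 70.0, 144 and 68.8 FPKM, and LINC01619 was likewise highest in shCon olaparib. LINC01511 lies 12721 bases from SLC6A3, the dopamine transporter gene, which was at 1.23, 40.0 and 6.54 FPKM; the member was at 0.0924, 1.58 and 0.425 FPKM, and both were called in both comparisons. LINC01234 lies 43057 bases from RBM19, a gene of ribosomal RNA processing, which had its lowest level in the same group, at 17.5, 6.64 and 35.9 FPKM.

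Among the farther pairs, tallied above, a pair of examples moved alike with shFoxO1. LINC02541, 207270 bases from MARCKS, a protein that links actin to the membrane, was at 0.973 and 1.77 FPKM in shCon cells and listed at 0 with shFoxO1, where MARCKS fell from 121 to 12.7 FPKM. LINC00917 (chromosome 16, 86331850 to 86345679), 164848 bases from the forkhead gene FOXF1, was at 0.0919 FPKM in shCon DMSO, listed at 0 in shCon olaparib and at 1.07 FPKM with shFoxO1. FOXF1 was at 5.79, 0.156 and 16.1 FPKM in the same order. In other pairs the neighbour did not follow. SLC39A11, a zinc transporter gene 5477 bases from LINC00511, was not called with olaparib and was lower with shFoxO1 (9.51 to 4.92 FPKM), while LINC00511 was higher. KPNA2, an importin gene 54701 bases from LINC00674, was at 148, 150 and 199 FPKM and was called higher with shFoxO1, where LINC00674 was 17.4-fold lower. The pairs in this and the next paragraph were chosen after their values were seen.

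LINC00598 (ENSG00000215483, chromosome 13, 40347132 to 40481004) lies on the same strand as FOXO1, 74663 bases past its end, and the authors list it, LINC00332 (40181809 to 40189030) and FOXO1 with a single region. LINC00598 was at 0.986 FPKM in shCon DMSO, 7.47 FPKM in shCon olaparib and 2.21 FPKM in shFoxO1 olaparib. The level of FOXO1 was highest in the same group, where the difference from DMSO was not called (q = 0.0966 per the authors' deposited table). With olaparib LINC00598 rose 7.57-fold (log2 ratio 2.92, q = 0.00165 per the authors' deposited table). With shFoxO1 the log2 ratio was -1.78 and the difference was not called (q = 0.0513 per the authors' deposited table). LINC00332 was at 1.4, 4.22 and 0.660 FPKM and was called in neither comparison. Of the coding genes on either side of this stretch, COG6, of the Golgi tethering complex, was at 2.60, 4.99 and 4.46 FPKM. Like LINC00598 it was called higher with olaparib (log2 ratio 0.94, q = 0.00378 per the authors' deposited table) and not called with shFoxO1. MRPS31, of the mitochondrial ribosome, was lowest in shCon olaparib, at 14.2, 9.69 and 26.5 FPKM, and was called in both comparisons.

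**Figure D4:**
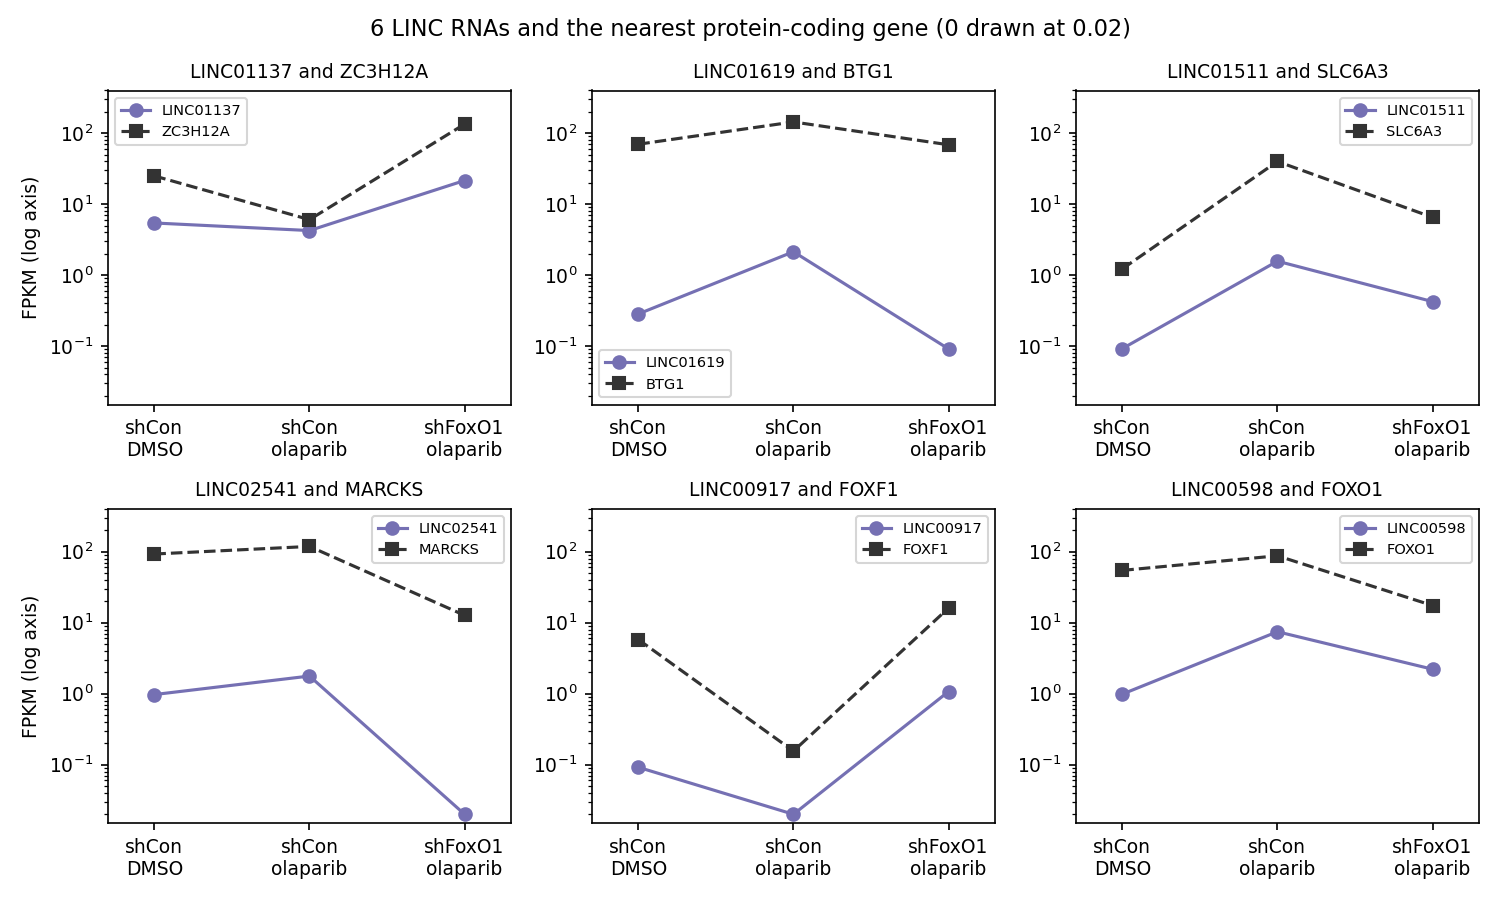
Level in FPKM (log axis) of 6 LINC RNAs (circles) and their nearest protein-coding gene (squares) in shCon DMSO, shCon olaparib and shFoxO1 olaparib, with 1 deposited value per point and 0 drawn at the lower end; the pairs were chosen after their values were seen. LINC01137 and ZC3H12A both peak with shFoxO1, while LINC01619, LINC01511 and LINC00598 and their neighbours have their highest value in shCon olaparib, a difference from DMSO that was not called for FOXO1.

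Some members could not be compared. Neither comparison was tested by the authors for 3 members, and 15 members were listed at 0 in at least 1 group. LINC02100 was listed at 0 in both shCon groups and at 4.22 FPKM with shFoxO1, and LINC02356 was at 1.91 FPKM in shCon olaparib and listed at 0 in the other groups, each without a test. A large ratio did not by itself bring a call at these levels. An example is LINC01550, at 0.0301 against 1.14 FPKM with shFoxO1 (log2 ratio -5.25, q = 0.315 per the authors' deposited table). Called in neither comparison were 85 of the 183 members, a count that includes members without a test. Of the 168 members tested in both comparisons, 75 were called in neither. Over all tested genes 38.7% were called with olaparib and 42.4% with shFoxO1, and their share called in neither was not computed.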

How the data were processed

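Per the labels' protocols, ribosomal RNA was removed and paired-end libraries that keep strand were made. The submitters' processing notes name CASAVA 1.4, HISAT2 2.1.0, Cufflinks 2.2.1 and hg38 but give them no roles; whether counting used strand is not given in the sources used here. Per the file headers, the authors deposited for each of 60595 genes an FPKM value per group, a p-value, a q-value and a status. Whether a group's value rests on both of its libraries is not said. FPKM depends on the authors' transcript lengths and on scaling: shCon olaparib is in both tables, and its values in the second were 1.017 times those in the first at the median over 13688 genes. Each comparison was therefore read within its table; where levels of the 3 groups stand together, shCon values are from the first table and shFoxO1 values from the second.

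Log2 ratios were computed from FPKM without a pseudocount, with Python 3.11.15 and pandas 2.3.3, and none where a group was at 0. The authors' deposited q-values equalled Benjamini-Hochberg adjustment over tested genes within 5.22e-07, and their smallest p was 5e-05. The calculation was tested on simulated data. Values per library were not used here, so no model was fitted. The members and gene lists were chosen with earlier results of these data known. Named genes were the 10 highest members, the 10 largest called rises and falls in each comparison, members on 4 lists, those nearest the floor, FOXO1 and neighbours; others were chosen after their values were seen. Columns of other samples numbered 0. Symbols, positions and promoters came from RefSeq of GRCh38.p14. Alternatives changed the threshold, adjustment, floor, pseudocount, scaling and choice of members.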

Additional observations from a re-analysis of the deposited data

How the results depend on the processing

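The 42 members called higher with olaparib became 27 at a floor of 2 FPKM, 21 when chosen by the group outside the comparison and 22 without the 113 members that share a listed region, each with fewer members by construction. The 23 called lower became 12 at q at most 0.01, 12 with adjustment over every listed gene, 15 at 2-fold and 6 without shared regions. With shFoxO1 the 22 higher became 14 at q at most 0.01 and 7 without shared regions. The 48 lower became 31 at a floor of 2 FPKM, 29 by the outside group and 20 without shared regions. In both comparisons, counts at that floor, by the outside group and without shared regions rest on fewer members by construction. They are therefore not counts of calls lost. The median log2 ratio with olaparib, 0.51, was 0.34 with a pseudocount of 1 FPKM, 0.34 after quantile normalization, 0.33 at a floor of 2 FPKM and 0.21 by the outside group. That with shFoxO1, -0.64, was -0.45, -0.45, -0.47 and -0.41 under the same alternatives. Both medians kept their sign under every alternative run. Tested results for named members with a value above 0 in both groups numbered 94, including uncalled ratios, which had no call to lose. Of these, 16 lost their call with adjustment over every listed gene, among them LINC01619 and LINC01511 with olaparib and LINC00674 and LINC00662 with shFoxO1. The 16 are no share of calls lost, since the 94 include uncalled ratios. Members outside the 94 lost calls too, such as LINC00476, LINC01446 and LINC01807 with olaparib. With shFoxO1 these included LINC02210, LINC01376 and LINC00638. At q at most 0.01, 18 did, and at 2-fold 7 did. Calls with a group at 0 are outside the 94. Of those, LINC01967 with olaparib and LINC01786 with shFoxO1 were also lost with adjustment over every listed gene. The sign turned for uncalled ratios with olaparib only: LINC00963 to 0.13, LINC01184 to 0.11 and LINC02245 to -0.17 after quantile normalization, and LINC01184 to 0.013 after centring on the median of all genes; the cause was not tested. No paired analysis was possible because the tables hold 1 value per group, and for the same reason leaving out a library was not run. Depth, and with it the precision of members near 1 FPKM, is unknown.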

Other observations

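Some genes, well-known RNAs among them, have a LINC symbol only as another name. They are listed under a different symbol and so are not members. At 1 FPKM or more there were 75 such genes, 51 of them lncRNAs and 23 protein-coding, such as AGO2 and SUCLA2. For LINP1, KMT2E-AS1 and KCNK15-AS1 the LINC symbol (LINC00707, LINC01004 and LINC01260) is also that of a separately listed member. With olaparib 16 of 73 tested were called higher and 15 lower, and with shFoxO1 15 of 74 were called higher and 21 lower. Over all tested genes 15.6% were higher and 23.1% lower with the drug, and 22.6% and 19.8% with the knockdown. CYTOR (formerly LINC00152), an RNA studied in many carcinomas, was at 312, 194 and 375 FPKM in shCon DMSO, shCon olaparib and shFoxO1 olaparib. It was lower with olaparib (log2 ratio -0.69, q = 0.00101 per the authors' deposited table) and higher with shFoxO1 (0.92, q = 0.000244), in the order of groups seen for LINC00511. CRNDE (LINC00180) had the opposite order, at 14.0, 39.2 and 5.26 FPKM, and was called in both comparisons (log2 ratios 1.48 and -2.92). NORAD (LINC00657), which binds Pumilio proteins and guards chromosome stability, rose from 41.6 to 64.3 FPKM with olaparib and was at 57.4 FPKM with shFoxO1, without a call there. The nuclear RNAs NEAT1 (LINC00084) and MALAT1 (LINC00047) also rose with olaparib, from 60.8 to 94.1 and from 25.1 to 69.2 FPKM. With shFoxO1 NEAT1 was lower, at 72.2 against 95.7 FPKM (q = 0.0250 per the authors' deposited table), and MALAT1, at 64.1 against 70.5 FPKM, was not called.

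Among the former LINC loci now read as coding for small proteins, MTLN (LINC00116), which acts in mitochondrial lipid oxidation, fell from 167 to 75.6 FPKM with olaparib and was at 155 FPKM with shFoxO1, where it was called higher (log2 ratio 1.01, q = 0.000244 per the authors' deposited table). SMIM26 (LINC00493) was at 92.5, 90.7 and 154 FPKM and SMIM30 (LINC00998) at 31.6, 29.6 and 41.3 FPKM, both called higher with shFoxO1 only. NBDY (LINC01420), a protein of the mRNA decapping complex, was at 31.2, 35.9 and 22.1 FPKM and was called lower with shFoxO1.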
